A study of Mus musculus with 6 samples.

Results

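The genes described here are the VEGF and angiopoietin ligands Vegfa, Vegfb, Vegfc, Vegfd, Angpt1 and Angpt2 and the receptors Tek, Tie1, Flt1 and Kdr, followed in stromal cells of injured mouse muscle. They were chosen by name, with earlier results of these data known, as 10 of the 55536 genes counted. Each name matched 1 gene of the GENCODE vM21 annotation. The RNA-seq libraries came from CD29+ cells without CD45 or CD31 that had been split on tdTomato, which in these mice reports p16. That protein, a product of Cdkn2a, blocks the cell cycle and is widely used to mark senescent cells. There were 3 libraries of reporter-positive cells (p16+) and 3 of reporter-negative cells (p16-). Both groups came from the same reporter on C57Bl/6, from quadriceps resected at 10 weeks of age, with carprofen given to all animals. The defects were filled with polycaprolactone particles, a decellularized matrix or saline, and tissue was taken 1 or 6 weeks later. The labels used here name neither the filler and time of each library nor the number of animals behind it. It is therefore not known whether p16+ and p16- libraries match in these, and the spread that p-values rest on here may be technical.

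VEGF ligands are secreted growth factors that bind receptor tyrosine kinases, chiefly Flt1, Kdr and Flt4, on blood and lymphatic endothelium and so drive vessel growth. Angiopoietins act on Tek, also called Tie2, which stabilises vessels when Angpt1 binds it, while Angpt2 can oppose that signal depending on context. Tie1 is an orphan relative that pairs with Tek. In muscle, stromal and mural cells are known as sources of the ligands, whereas Tie1, Flt1 and Kdr are best known from endothelium. Tek is also known from some mesenchymal cells, pericytes and macrophages.

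Totals were 35253406 to 37861713 counts in p16+ libraries and 36507067 to 39103909 in p16- libraries, and the 10 genes together took 11787 to 12733 of them in p16+ and 19744 to 21553 in p16-. A count of 3 equalled at most 0.0876 CPM (counts-per-million on the normalised library size) in any library. Cdkn2a had 251, 324 and 265 counts in p16+ libraries and 98, 70 and 82 in p16- libraries, and its log2 fold change was 1.88 (edgeR quasi-likelihood, adjusted p = 2.0e-05). These gene counts do not separate p16 from any other product of Cdkn2a. Of the gate genes, Itgb1 (CD29) averaged 891 ± 21.7 CPM in p16+ libraries and 758 ± 53.4 CPM in p16- libraries (SD, n = 3 each), and the stromal marker Pdgfra, named after its values were seen, had 866 CPM in p16+ libraries and 1018 CPM in p16- libraries. Pecam1 (CD31) averaged 6.73 ± 1.58 CPM in p16+ libraries and 3.34 ± 0.778 CPM in p16- libraries, and Ptprc (CD45) 7.77 ± 2.22 CPM in p16+ and 4.89 ± 0.929 CPM in p16-, so that transcripts of the markers gated against were low but present.

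The question put to the genes was how each differed between p16+ and p16- libraries, and whether Tek followed the endothelial receptors. Tek, Vegfa and Vegfd were lower in p16+ libraries, and Vegfc, Angpt2 and Flt1 were higher. Vegfb, Angpt1, Kdr and Tie1 did not pass the threshold, an adjusted p of 0.05 by edgeR's quasi-likelihood test over all genes. All 10 passed the filter on low counts. The 6 called genes, 3 higher and 3 lower, stand beside a background of 16.7% of the 15903 genes tested, 8.69% higher and 8.04% lower. Values of the 2 groups did not overlap for 7 of the 10 genes, against 33.1% of all genes tested. The median absolute log2 fold change was 0.67 over the 10 genes and 0.23 over all genes tested, while the median signed change was 0.01 over the 10 genes and -0.01 over all. The 10 genes, and the lists below, were chosen with earlier results of these data known. Shares set beside those of all genes are therefore a description and not a test of enrichment.

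**Figure D1:**
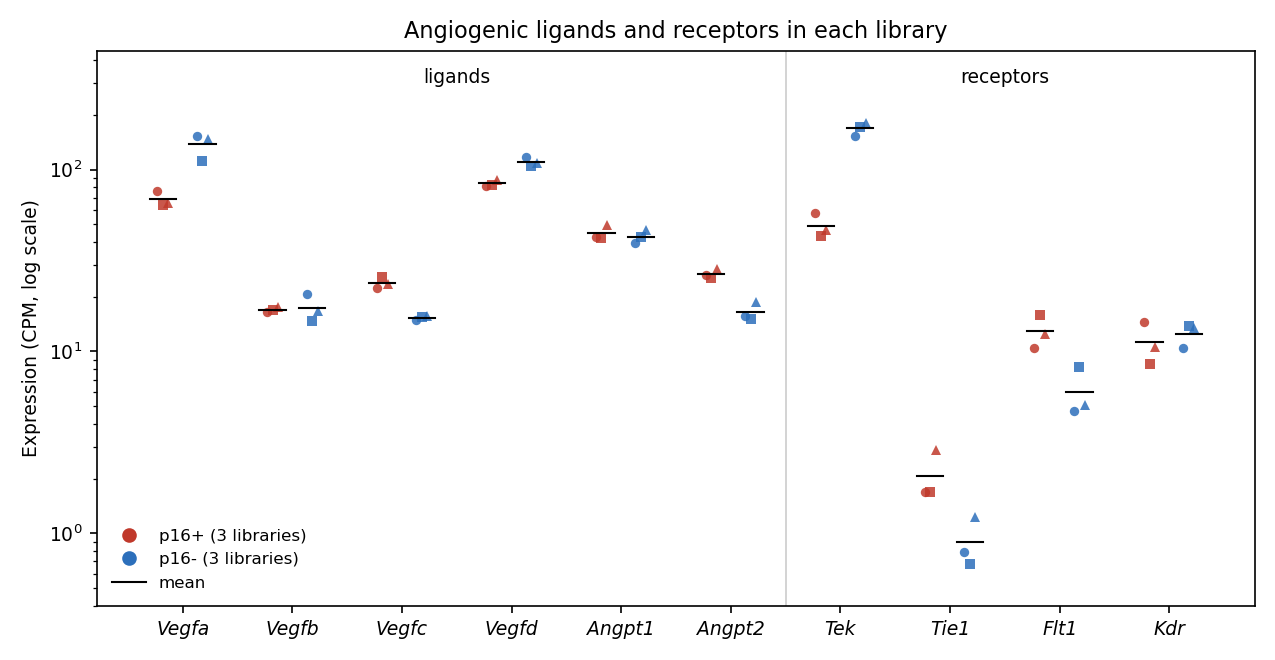
CPM on a log axis of the 6 ligand and 4 receptor genes, with 1 point per library (p16+ left, p16- right; circle, square and triangle for replicates 1, 2 and 3) and a bar at the group mean. Tek sits between 42.9 and 57.9 CPM in p16+ libraries and between 153 and 180.3 CPM in p16- libraries, while the points of Vegfb, Angpt1 and Kdr overlap between groups.

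**Figure D2:**
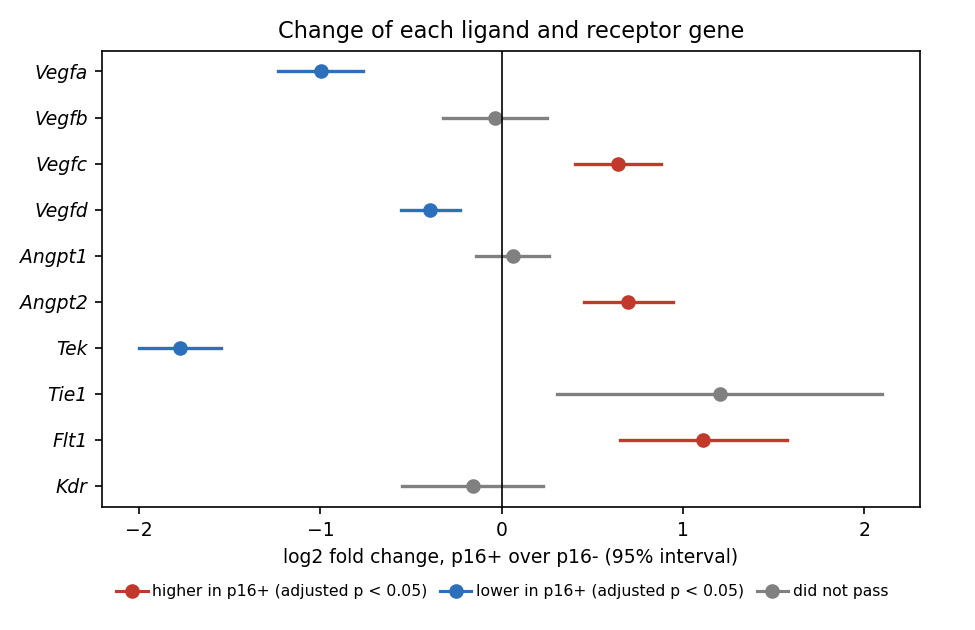
Log2 fold change of each gene, p16+ over p16-, with its 95% interval from edgeR's quasi-likelihood fit. The interval of Tek, -2.00 to -1.55, overlaps that of no other gene drawn.

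Tek (chromosome 4, 94739289 to 94874976, plus strand, GRCm38) is the angiopoietin receptor. It had 57.9, 42.9 and 46.7 CPM in p16+ libraries, against 153, 171 and 180.3 CPM in p16- libraries. Every p16+ library lay below every p16- library, by more than the range within either group. Tek fell to 49.2 ± 7.79 CPM in p16+, against 168 ± 13.8 CPM in p16- (SD, n = 3 each), or -1.77 on the log2 scale (SE 0.11, 95% interval -2.00 to -1.55, adjusted p = 5.24e-08), or 3.42-fold lower. The size of its change exceeded that of 97.9% of all genes tested. Fewer cells that express a gene and less RNA per cell cannot be told apart in these libraries, for Tek as for every gene below.

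Tie1 (chromosome 4, 118471191 to 118490061, minus strand), which lies on the same chromosome as Tek, was near the low end of what was measured. It had 1.68, 1.69 and 2.86 CPM in p16+ libraries, against 0.787, 0.681 and 1.24 CPM in p16- libraries, from 27 to 98 counts. The groups did not overlap and p16+ was on the higher side, opposite to Tek. The log2 fold change of Tie1 was 1.20 (SE 0.42, 95% interval 0.30 to 2.10) and did not pass (adjusted p = 0.0656). By DESeq2 it passed, at an adjusted p of 0.0472, and over the other alternatives the adjusted p reached 0.27 without p16+ replicate 3.

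Flt1 (chromosome 5, 147561604 to 147726011, minus strand) encodes a VEGF receptor that also exists as a secreted form that traps ligand, and gene counts do not separate the forms. It had 10.5, 16 and 12.5 CPM in p16+ libraries, against 4.70, 8.20 and 5.11 CPM in p16- libraries. Replicate 2 was the highest in each group and the groups did not overlap. Flt1 rose to 13.0 ± 2.77 CPM in p16+, against 6.00 ± 1.91 CPM in p16- (SD, n = 3 each), a log2 fold change of 1.11 with SE 0.22 (adjusted p = 0.00172).

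Kdr (chromosome 5, 75932827 to 75978458, minus strand), the main signalling receptor for Vegfa, had 14.5, 8.55 and 10.6 CPM in p16+ libraries, against 10.5, 13.7 and 13.4 CPM in p16- libraries. The groups overlapped, with the highest and the lowest value both in p16+. Its log2 fold change of -0.16 (SE 0.18, adjusted p = 0.632) had a 95% interval of -0.55 to 0.23, which leaves room for a modest change either way.

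Within a library, Tek was set against each endothelial receptor as a difference of log2 CPM. Against Tie1 the mean difference was 4.56 ± 0.534 in p16+ and 7.5 ± 0.369 in p16-. Against Kdr the same measure was 2.15 ± 0.164 in p16+ and 3.75 ± 0.114 in p16-, and against Flt1 it was 1.93 ± 0.518 in p16+ and 4.84 ± 0.405 in p16- (SD, n = 3 each). In each of these 3 pairs the p16+ libraries lay below all p16- libraries, and p16+ minus p16- was -2.94 on the log2 scale for Tie1, -1.6 for Kdr and -2.91 for Flt1. The exact two-sided permutation test gave p = 0.1 for each, the smallest that 3 against 3 libraries allow, and 0.1 after Benjamini-Hochberg adjustment over 6 pairs.

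Levels of different genes were compared per length, as RPKM (CPM per kilobase of exon). Tek made up 79.7% ± 1.84 of the summed RPKM of the 4 receptors in p16+ libraries and 94.7% ± 0.503 in p16- libraries. Kdr took 9.41% ± 1.26 in p16+ and 3.67% ± 0.272 in p16-, Flt1 7.57% ± 2.52 in p16+ and 1.18% ± 0.346 in p16-, and Tie1 3.29% ± 1.21 in p16+ and 0.483% ± 0.133 in p16- (SD, n = 3 each). Among these 4 receptors alone, the summed RPKM of the libraries was thus mostly Tek in both groups. Per length, Tek stood at 9.92 ± 2.02 times Pecam1 in p16+ libraries and at 68.2 ± 10.7 times in p16- libraries. Kdr was also lower beside Pecam1 in p16+, at 1.16 ± 0.256 times, against 2.63 ± 0.337 times in p16-. Tie1 stood at 0.391 ± 0.0791 times Pecam1 in p16+ and 0.343 ± 0.0741 times in p16-. Flt1 stood at 0.954 ± 0.446 times Pecam1 in p16+ and 0.849 ± 0.277 times in p16-. These ratios to Pecam1 were chosen after their values were seen and were not tested.

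**Figure D3:**
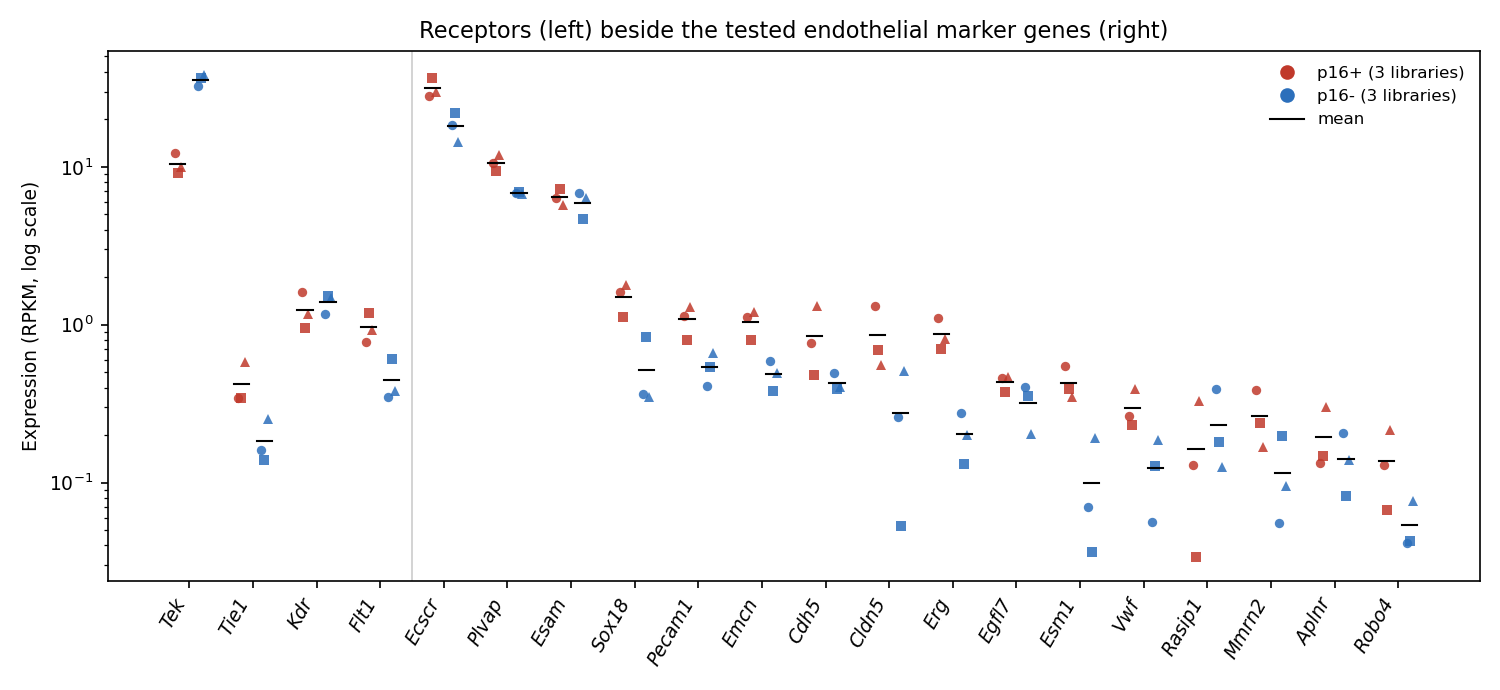
RPKM on a log axis of the 4 receptor genes (left of the line) and of the 16 endothelial marker genes that passed the filter (right), 1 point per library, p16+ left of p16- for each gene. Tek lies at 9.11 to 12.3 RPKM in p16+ and 32.5 to 38.3 RPKM in p16- libraries, and most endothelial markers lie near or below 1 RPKM in both.

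Markers of endothelium were measured beside the receptors. Of 18 endothelial markers, 16 were tested, 7 were higher in p16+ libraries, 0 were lower and 9 did not pass (8.69% higher and 8.04% lower over all genes tested), with a median log2 fold change of 1.05. The summed level of the list was 124 to 132 CPM in p16+ and 73.7 to 79.8 CPM in p16- libraries. Most of that sum was Ecscr, Plvap and Esam. Ecscr had 55.1 CPM in p16+ and 31.8 CPM in p16-, and Plvap 21.1 CPM in p16+ and 13.6 CPM in p16-. Both passed, while Esam, with 18.5 CPM in p16+ and 17.0 CPM in p16-, did not. Of the defining members of the list, Pecam1 rose by the values given above. The endothelial cadherin gene Cdh5 had 3.58 ± 1.78 CPM in p16+ and 1.80 ± 0.232 CPM in p16- without passing (adjusted p = 0.0711). The endothelial transcription factor gene Erg rose to 3.03 ± 0.72 CPM in p16+, against 0.704 ± 0.252 CPM in p16- (adjusted p = 0.00124), and the surface sialomucin gene Emcn to 5.63 ± 1.16 CPM in p16+, against 2.63 ± 0.577 CPM in p16- (adjusted p = 0.00683). No member was at 0 in all libraries. Without p16+ replicate 3 the number higher was 4, and the call of Pecam1 was lost (adjusted p = 0.0621). The 7 called markers were higher in p16+, as was Flt1, while Rasip1, at -0.51 on the log2 scale, did not pass. The part of endothelial cells in the values of Flt1, Tie1 and Kdr was not tested. For Tek, the median endothelial marker was at 0.643 RPKM in p16+ and 0.254 RPKM in p16-. In p16+ 2 of 18 members, Ecscr and Plvap, exceeded Tek, and in p16- 0 of 18 did.

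Other cell types known to hold Tek were measured in the same way, and their counts and those of the lists that follow stand beside the same shares over all genes, 8.69% higher and 8.04% lower. Of 10 mural cell markers 6 were higher in p16+ and 0 lower, led by Notch3 with 334 ± 14 CPM in p16+ libraries and 195 ± 22.0 CPM in p16- libraries (adjusted p = 1.27e-05), with summed levels of 2526 to 2533 CPM in p16+ and 1710 to 2063 CPM in p16-. With library sizes alone, without the filter, without p16+ replicate 1 or without p16- replicate 2, 1 of them, Kcnj8, was called lower. Of 13 macrophage and leukocyte markers 12 were tested, 5 were higher and 0 lower, led by Csf1r with 28.2 ± 3.39 CPM in p16+ and 12.5 ± 3.28 CPM in p16- (adjusted p = 7.32e-05; 15.1% of its exonic length is overlapped on the opposite strand). Their summed levels were 277 to 323 CPM in p16+ and 199 to 224 CPM in p16- libraries. Per length, 8 of the 10 mural markers exceeded Tek in p16+ and 2 did in p16-. Of the 13 macrophage and leukocyte markers, 6 exceeded Tek in p16+ and 1 did in p16-. Of the lymphatic endothelial markers, 1 exceeded Tek in each group. The part of these cell types in the value of Tek was not tested. Of 5 lymphatic endothelial markers 1 was higher, Lyve1, with 6.12 ± 1.32 CPM in p16+ and 2.72 ± 1.34 CPM in p16- (adjusted p = 0.0234), and that call was lost without p16+ replicate 1 or p16+ replicate 3 (adjusted p up to 0.103). The lymphatic markers summed to 242 to 274 CPM in p16+ and 218 to 251 CPM in p16-, nearly all of it Pdpn.

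Of 6 Schwann cell markers, 4 were lower in p16+, 1 did not pass and Ncam1, an adhesion gene also known from other cells, was higher. Their summed level was 59.5 to 65.1 CPM in p16+ and 73.1 to 117 CPM in p16- libraries. The adhesion gene Cdh19 fell to 3.56 ± 0.242 CPM in p16+, against 14.7 ± 4.87 CPM in p16- (adjusted p = 8.86e-06), and the glial transcription factor gene Sox10 to 2.42 ± 0.782 CPM in p16+, against 8.05 ± 2.85 CPM in p16- (adjusted p = 0.00052). None of the 6 exceeded Tek per length in either group, S100b having 5.86 RPKM in p16+ and 8.15 RPKM in p16-. The part of these cells in the value of Tek was not tested. Of 6 satellite cell markers 2, Pax7 and Cdh15, were higher and 0 lower in p16+, with summed levels of 24.0 to 30.4 CPM in p16+ and 14.8 to 26.1 CPM in p16- libraries, and without p16+ replicate 1 none passed.

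The promoters of the 4 receptor genes are shown because Tek stood apart from the other 3 (RefSeq, GRCm38.p6, 250 bases before to 50 after the start, each read 5′ to 3′ on the gene's strand). Capitals mark GGAA, the core of the site bound by ETS factors, which are known at endothelial promoters, and TTCC, the same core on the other strand.
Tek, chr4:94739039-94739338, plus strand: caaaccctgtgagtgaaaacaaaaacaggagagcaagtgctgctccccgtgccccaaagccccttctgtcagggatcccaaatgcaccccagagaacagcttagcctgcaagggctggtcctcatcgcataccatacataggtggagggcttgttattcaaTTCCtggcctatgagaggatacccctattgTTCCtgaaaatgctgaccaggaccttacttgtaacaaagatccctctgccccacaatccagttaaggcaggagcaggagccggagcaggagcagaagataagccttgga
Tie1, chr4:118489800-118490099, minus strand: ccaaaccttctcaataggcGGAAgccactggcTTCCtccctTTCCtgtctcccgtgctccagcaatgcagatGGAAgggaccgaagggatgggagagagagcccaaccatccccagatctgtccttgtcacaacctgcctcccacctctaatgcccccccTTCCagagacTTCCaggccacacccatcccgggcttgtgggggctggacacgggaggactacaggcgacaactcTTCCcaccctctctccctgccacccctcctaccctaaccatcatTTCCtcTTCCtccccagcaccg
Kdr, chr5:75978406-75978705, minus strand: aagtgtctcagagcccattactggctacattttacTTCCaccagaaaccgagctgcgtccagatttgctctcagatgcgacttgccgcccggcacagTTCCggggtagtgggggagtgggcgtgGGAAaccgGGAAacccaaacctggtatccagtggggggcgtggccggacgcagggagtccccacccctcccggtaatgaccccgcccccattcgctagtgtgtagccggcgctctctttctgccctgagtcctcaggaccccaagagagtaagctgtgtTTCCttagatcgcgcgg
Flt1, chr5:147725962-147726261, minus strand: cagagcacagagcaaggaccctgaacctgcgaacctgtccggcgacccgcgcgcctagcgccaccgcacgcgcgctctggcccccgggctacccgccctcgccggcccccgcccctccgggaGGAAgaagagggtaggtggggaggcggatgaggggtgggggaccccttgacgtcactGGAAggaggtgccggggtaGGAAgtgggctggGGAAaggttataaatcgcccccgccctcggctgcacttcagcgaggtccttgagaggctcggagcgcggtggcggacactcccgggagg
The window of Tek held 2 such cores, that of Tie1 9, that of Kdr 5 and that of Flt1 4. At least 1 core was found in 96.0% of 32544 promoter windows of this length, with a median of 3. At least as many cores as in Tek were found in 84.6% of them, as in Tie1 in 1.59%, as in Kdr in 28.6% and as in Flt1 in 46.3%. The GC content was 52.0% for Tek, 60.3% for Tie1, 60.7% for Kdr and 70.7% for Flt1, with 3, 7, 19 and 29 CpG sites in that order, against a median of 7 over all windows. A match is a description of letters and not a bound site. Sequence outside these windows was not searched, so the counts of cores do not speak to sites there.

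Vegfa (chromosome 17, 46016993 to 46032369, minus strand), the central driver of blood vessel growth, had 76.7, 64.2 and 65.7 CPM in p16+ libraries, against 153, 112 and 148 CPM in p16- libraries. Every p16+ library lay below every p16- library, and p16- replicate 2 lay apart from the other 2 of its group. Vegfa fell to 68.9 ± 6.83 CPM in p16+, against 138 ± 22.4 CPM in p16- (SD, n = 3 each), a log2 fold change of -1.0 with SE 0.11 (adjusted p = 9.15e-06), or 2.00-fold lower. Gene counts do not separate its splice forms, which differ in how they bind matrix. Its promoter is printed as that of the ligand with the largest change, with GGGCGG, the GC box bound by Sp1-type factors, in capitals.
Vegfa, chr17:46032328-46032627, minus strand: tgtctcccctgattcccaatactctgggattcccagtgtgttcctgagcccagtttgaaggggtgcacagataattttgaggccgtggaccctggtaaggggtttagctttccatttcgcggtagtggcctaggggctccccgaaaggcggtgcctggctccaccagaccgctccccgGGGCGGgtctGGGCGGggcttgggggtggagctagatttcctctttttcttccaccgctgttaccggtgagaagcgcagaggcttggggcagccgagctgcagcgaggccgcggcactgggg
The window held 2 GC boxes and 0 copies of ACGTG, the core of the hypoxia response element, on either strand, and none of its GC boxes shared a base with a GGAA core. Over all windows GGGCGG was found in 35.9% and ACGTG in 19.7%. A window at an internal start of Vegfa, not printed, held 1 of each. Sequence more than 250 bases before either start was not searched, so these counts do not speak to sites there.

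Vegfb (chromosome 19, 6982473 to 6987651, minus strand), a ligand of Flt1 with little part in vessel sprouting, had 16.4, 16.9 and 17.5 CPM in p16+ libraries, against 20.7, 14.7 and 16.7 CPM in p16- libraries. The p16+ values lay inside the range of the p16- values. Its log2 fold change of -0.04 did not pass (95% interval -0.32 to 0.25, adjusted p = 0.899). The difference of log2 CPM between Vegfa and Vegfb within a library was 2.02 ± 0.18 in p16+ and 2.99 ± 0.139 in p16- (SD, n = 3 each; exact two-sided permutation p = 0.1, adjusted p = 0.1).

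Vegfc (chromosome 8, 54077606 to 54187096, plus strand), the main growth factor of lymphatic vessels through Flt4, had 22.3, 25.8 and 23.5 CPM in p16+ libraries, against 14.8, 15.5 and 15.6 CPM in p16- libraries. The groups were well apart and tight within. Vegfc rose to 23.8 ± 1.78 CPM in p16+, against 15.3 ± 0.42 CPM in p16- (SD, n = 3 each), a log2 fold change of 0.64 with SE 0.11 (adjusted p = 0.000682), or 1.56-fold.

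Vegfd (chromosome X, 164373378 to 164402650, plus strand), its close relative and in mouse also a ligand of Flt4, had 81.6, 82.7 and 87.3 CPM in p16+ libraries, against 117, 105 and 109 CPM in p16- libraries. All p16+ libraries lay below all p16- libraries, in the opposite direction to Vegfc. Vegfd fell to 83.8 ± 3.03 CPM in p16+, against 110.1 ± 6.07 CPM in p16- (SD, n = 3 each), a log2 fold change of -0.39 with SE 0.08 (adjusted p = 0.00159). The difference of log2 CPM between Vegfc and Vegfd within a library was -1.81 ± 0.117 in p16+ and -2.84 ± 0.116 in p16- (exact two-sided permutation p = 0.1, adjusted p = 0.1, n = 3 each).

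Per length, Vegfd was the most abundant of the 4 VEGF ligands in both groups, at 48.9% ± 1.32 of their summed RPKM in p16+ and 48.3% ± 2.38 in p16-. Vegfa made up 22.6% ± 2.25 in p16+ and 33.7% ± 2.61 in p16-, Vegfc 13.7% ± 1.13 in p16+ and 6.63% ± 0.791 in p16-, and Vegfb 14.8% ± 0.414 in p16+ and 11.3% ± 1.03 in p16- (SD, n = 3 each). The share of Vegfc in p16+ libraries was about that of Vegfb, whereas in p16- libraries it was the smallest of the 4. The sum of the 4 was 71.2 ± 0.861 RPKM in p16+ and 94.9 ± 9.18 RPKM in p16-.

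**Figure D4:**
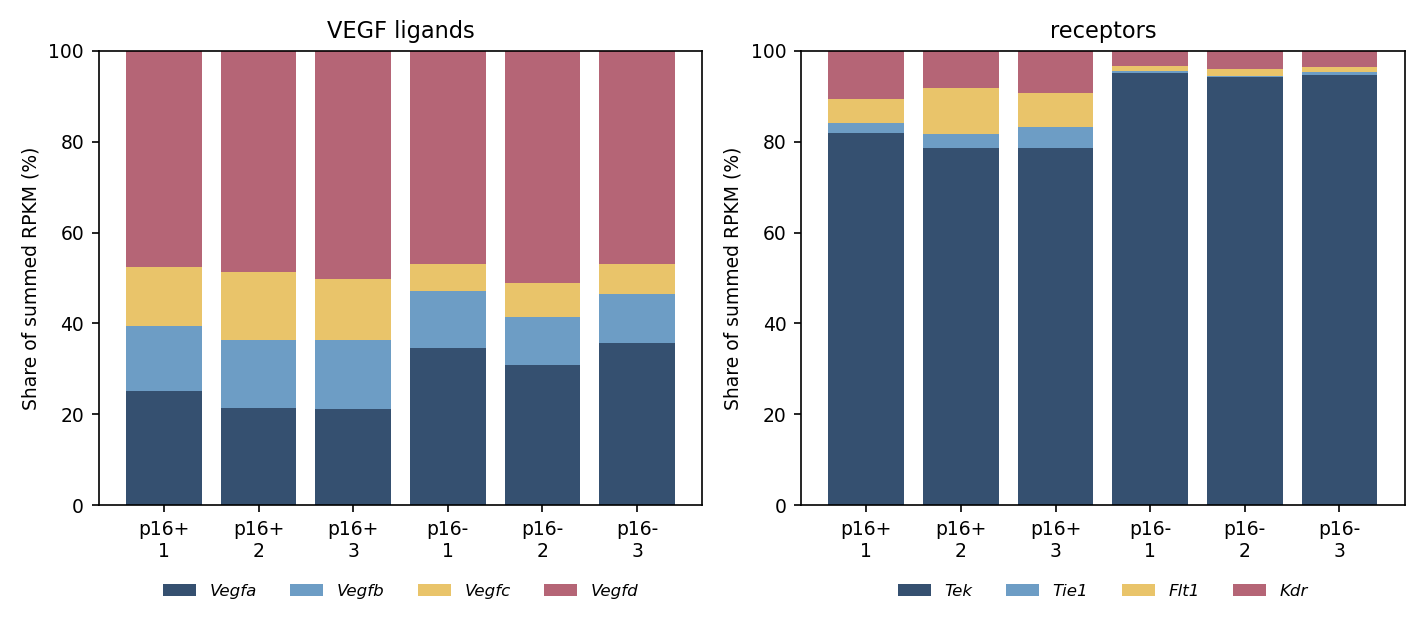
Share of each gene in the summed RPKM of the 4 VEGF ligands (left) and of the 4 receptors (right), in percent, 1 bar per library with the 3 p16+ libraries first. Vegfa takes 21.3% to 25.2% of the ligand sum in p16+ and 30.8% to 35.7% in p16- libraries, and Tek takes 78.7% to 81.9% of the receptor sum in p16+ and 94.1% to 95.1% in p16- libraries.

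Angpt1 (chromosome 15, 42424723 to 42676977, minus strand), the activating ligand of Tek, had 42.4, 42.1 and 49.3 CPM in p16+ libraries, against 39.6, 42.3 and 46.5 CPM in p16- libraries. The groups overlapped, with replicate 3 the highest in each. Its log2 fold change of 0.06 did not pass (95% interval -0.14 to 0.26, adjusted p = 0.738), and the sign turned with library sizes alone, to -0.01, and without p16+ replicate 3, to -0.02. Gm17473 covers 14.2% of the exonic length of Angpt1 from the other strand, and the counts were made with no option for strand. What this overlap did to the counts of Angpt1 was not tested.

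Angpt2 (chromosome 8, 18690263 to 18741562, minus strand), the context-dependent antagonist, had 26.4, 25.2 and 28.3 CPM in p16+ libraries, against 15.6, 15.1 and 18.6 CPM in p16- libraries. The lowest p16+ library was above the highest p16- library. Angpt2 rose to 26.6 ± 1.53 CPM in p16+, against 16.4 ± 1.9 CPM in p16- (SD, n = 3 each), a log2 fold change of 0.70 with SE 0.12 (adjusted p = 0.000464), or 1.62-fold. Per length, the ratio of Angpt2 to Angpt1 was 0.879, 0.845 and 0.808 in p16+ libraries, against 0.557, 0.502 and 0.564 in p16- libraries. Angpt1 was thus the more abundant ligand in all 6 libraries, by a smaller margin in p16+. The difference of their log2 CPM was -0.74 ± 0.0602 in p16+ and -1.38 ± 0.0913 in p16- (exact two-sided permutation p = 0.1, adjusted p = 0.1, n = 3 each).

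Set in order of mean RPKM, the p16+ libraries ran Vegfd at 34.8, Vegfa at 16.1, Vegfb at 10.5, Tek at 10.4, Vegfc at 9.74, Angpt1 at 8.57, Angpt2 at 7.22, Kdr at 1.24, Flt1 at 0.96 and Tie1 at 0.422. Neighbours whose library ranges overlapped were Vegfb and Tek, Tek and Vegfc, Vegfc and Angpt1, and Kdr and Flt1. The p16- libraries ran Vegfd at 45.7, Tek at 35.7, Vegfa at 32.1, Vegfb at 10.8, Angpt1 at 8.22, Vegfc at 6.24, Angpt2 at 4.45, Kdr at 1.39, Flt1 at 0.444 and Tie1 at 0.183. In this group Tek and Vegfa were the pair of neighbours whose ranges overlapped. Vegfd led and Kdr, Flt1 and Tie1 came last in both groups, and Tek held the fourth place in p16+ and the second in p16-.

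The genes most like Tek over the 6 libraries, by Pearson's r of log2 CPM among 10511 genes, were Neurl3, Lrrn4cl, Pgr, Zfp36l1 and Ehbp1, with r of 0.9979 to 0.9996. All 5 were lower in p16+, from -0.34 on the log2 scale for Zfp36l1, an RNA-binding protein gene, to -1.84 for the ubiquitin ligase gene Neurl3, and Pgr, the progesterone receptor gene, had 26.6 CPM in p16+ and 75.7 CPM in p16-. The genes most like Vegfa were Igfbp3, Zfp36, Spry2, Slc1a5 and Atf3, with r of 0.9957 to 0.9996. They too were lower in p16+, among them Igfbp3, an insulin-like growth factor binding protein gene, with 131 CPM in p16+ and 255 CPM in p16-, and Atf3, a stress-response transcription factor gene, with 1172 CPM in p16+ and 1979 CPM in p16-. The 6 libraries form 2 groups, and each r compares genes counted in the same libraries, so these r describe the group difference as much as the order within a group. Because these genes were picked for the highest r, their shared direction follows from the choice and is no separate result.

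Further genes of the VEGF and angiopoietin system were read from a list of 16, of which 15 were tested, 5 were higher in p16+, 3 were lower and 7 did not pass, with a median log2 fold change of 0.41. Over all genes tested 8.69% were higher and 8.04% lower. Ccbe1, a secreted protein gene needed to activate Vegfc, had 38.1, 42.4 and 52.3 CPM in p16+ libraries, against 19.5, 26.0 and 20.2 CPM in p16- libraries. Its groups did not overlap (log2 fold change 1.02, SE 0.13, adjusted p = 4.72e-05). Adamts3, the protease gene that cleaves Vegfc, rose to 15.2 ± 2.43 CPM in p16+, against 8.17 ± 0.75 CPM in p16- (log2 fold change 0.89, adjusted p = 0.000635). Nrp2, a co-receptor gene for Vegfc and semaphorins, rose to 80.5 ± 12.4 CPM, against 49.6 ± 5.63 CPM in p16- (0.70, adjusted p = 0.000262). The plexin gene Plxnd1 rose to 136 ± 5.05 CPM, against 101 ± 4.37 CPM in p16- (0.43, adjusted p = 0.000616). Svep1, a matrix gene known from lymphatic development, rose by 0.41 on the log2 scale (adjusted p = 0.0196), with 13.9% of its exons shared with a gene on the other strand. Leaving out p16+ replicate 2 or 3, or p16- replicate 1 or 3, ended its call, with adjusted p-values up to 0.141.

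The 3 that fell were semaphorin and VEGF family ligands. Sema3c, a guidance ligand of neuropilins, had 285, 225 and 225 CPM in p16+ libraries, against 587, 655 and 617 CPM in p16- libraries. This was the largest fall of the list (log2 fold change -1.34, SE 0.10, adjusted p = 2.0e-07). Pgf, the placental growth factor that binds Flt1, fell to 5.40 ± 2.04 CPM in p16+, against 11.2 ± 0.935 CPM in p16- (-1.06, adjusted p = 0.00475). Sema3e, the ligand of Plxnd1, fell to 6.94 ± 2.59 CPM, against 13.3 ± 2.16 CPM in p16- (-0.94, adjusted p = 0.0068). Nrp1, the co-receptor for Vegfa, did not pass, with 139 ± 13.3 CPM in p16+ libraries and 123 ± 13.1 CPM in p16- libraries (adjusted p = 0.248). The lymphatic receptor gene Flt4 had 1.37 ± 0.461 CPM in p16+ and 0.54 ± 0.144 CPM in p16- and did not pass (adjusted p = 0.0976), though it did under the stricter filter (adjusted p = 0.0487). Ptprb, whose phosphatase acts on Tek, had 3.75 ± 0.569 CPM in p16+ and 2.14 ± 0.406 CPM in p16- (adjusted p = 0.0609).

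Genes of oxygen sensing and the response to hypoxia, known regulators and companions of Vegfa, were set beside it. Of 16, 15 were tested, 3 were higher in p16+, 1 was lower and 11 did not pass, against 8.69% higher and 8.04% lower over all genes tested, with a median log2 fold change of 0.13. Epas1 and Hif1a, which encode the hypoxia-inducible factor subunits, rose to 237 ± 14.5 and 348 ± 31.9 CPM in p16+, against 115 ± 1.46 and 230 ± 43.0 CPM in p16- (adjusted p = 2.17e-07 and 0.0014). The glycolysis gene Pgk1 rose by 0.36 on the log2 scale (adjusted p = 0.0214), a call lost under 4 alternatives. Adm, the vasoactive peptide adrenomedullin, had 47.8, 41.9 and 43.5 CPM in p16+ libraries, against 93.7, 85.5 and 88.4 CPM in p16- libraries. It was the list member that fell, with a log2 fold change of -1.01 (adjusted p = 4.94e-07). By DESeq2 5 members were higher, and with library sizes alone 2 were lower.

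**Figure D5:**
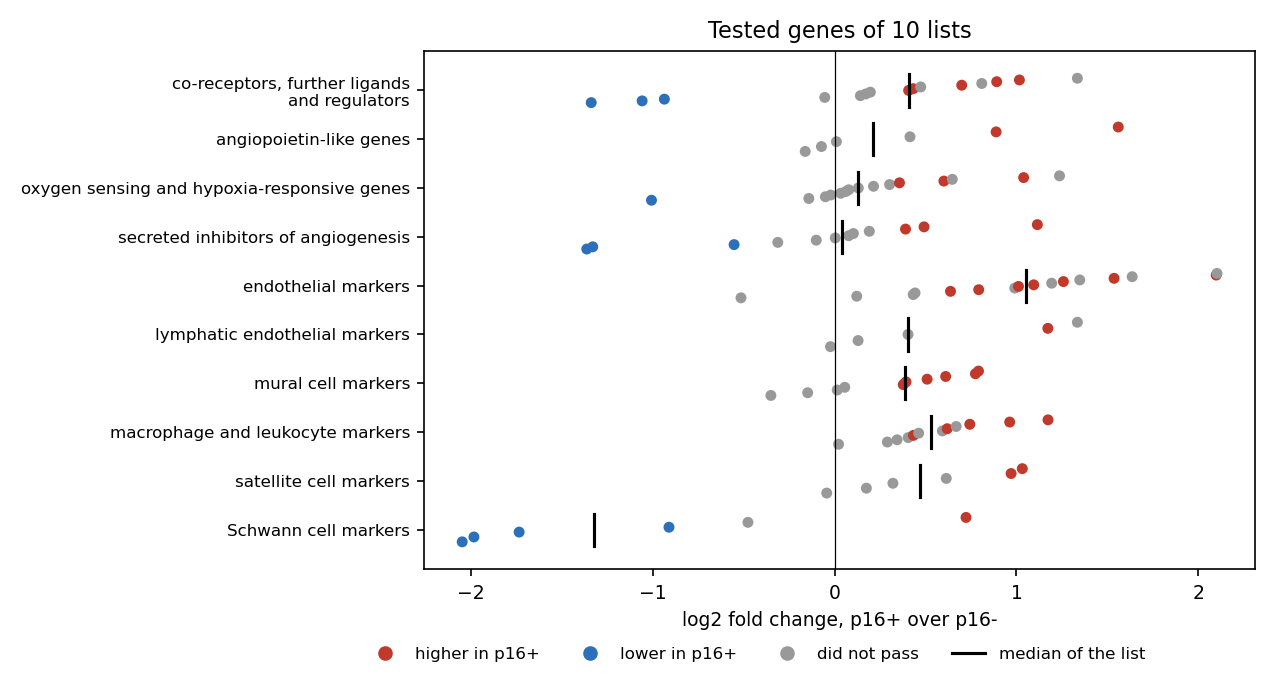
Log2 fold change, p16+ over p16-, of the tested genes of 10 lists, 1 point per gene coloured by its call, with a bar at the median of each list. The median of the endothelial markers is 1.05, that of the Schwann cell markers -1.32 and that of the co-receptors, further ligands and regulators 0.41, against -0.01 over all genes tested.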

How the data were processed

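RNA of 3 p16+ and 3 p16- libraries was sequenced. The authors deposited raw counts: featureCounts 1.6.0 had counted read pairs over GENCODE vM21 exons with no option for strand, per the file headers. The submitters' processing notes name bcl2fastq, STAR 2.7.3a and the build GRCm38.p6. All 55536 gene rows matched vM21 by identifier, start and end.

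From these counts, filterByExpr kept 15903 genes, which held 99.918% to 99.932% of each library. TMM factors, CPM, log2 CPM (prior count 2) and the quasi-likelihood F test with group alone (robust) were from edgeR 4.0.16 in R 4.3.3, with p adjusted by Benjamini-Hochberg over those genes. SE is the log2 fold change over the root of F. RPKM is CPM per kilobase of exonic length, computed here. Ratios of 2 genes used an exact two-sided permutation test. On simulated counts of this comparison, with 15461 genes, the test recovered 24 of 50 genes changed 1.5-fold, 31 of 50 at 2-fold, 36 of 50 at 3-fold and 46 of 50 at 4-fold, with 8 false among 145 calls. No other genes were changed in the simulation, and far more, 2660, were called in the data. The threshold on adjusted p was therefore stricter in the simulation, and recovery in the data may differ.

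Alternatives were RLE and upper-quartile factors, library sizes alone, no filter, a stricter filter (CPM of at least 1 in at least 3 libraries), DESeq2 1.42.0, each library left out and the replicate number as a block. The 10 genes and the 10 lists were chosen with earlier results of these data known. Named genes were the 10, up to 4 members per list with the smallest p, further endothelial markers and members of the first list, the genes of the sort, and the 5 genes most like Tek and like Vegfa with a mean log2 CPM of at least 2 and a name that is not a gene model. Genes named outside this rule, after their values were seen, were Pdgfra, Pdpn, S100b, Kcnj8 and Angptl2. The counts per list under the alternatives were added after seeing the data.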

Additional observations from a re-analysis of the deposited data

How the results depend on the processing

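The calls of Tek, Vegfa, Vegfc, Vegfd, Angpt2 and Flt1 held, with their direction, under all 13 alternatives, so that 3 of the 10 genes were higher and 3 lower in each, except that DESeq2 called 4 higher, Tie1 included. The log2 fold change of Tek lay between -1.91 and -1.69 and its adjusted p was at most 1.37e-05, that of Vegfa between -1.13 and -0.91. Of the genes that did not pass, Angpt1 turned to -0.0148 with library sizes alone and ranged from -0.0189 (without p16+ replicate 3) to 0.125 with 1 library left out, Kdr ranged from -0.39 to 0.0035 and Vegfb from -0.14 to 0.11, and the cause was not tested. Tie1 passed by DESeq2 (adjusted p = 0.0472) and by no other alternative. Over all genes, 1059 were higher and 1882 lower with library sizes alone, or 36.0% higher among those called, in place of 52.0%. The number higher was 977 to 1333 and the number lower 910 to 1234 with 1 library left out.

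Same-numbered p16+ and p16- libraries deviated together little (r = 0.0284, 0.0821 and -0.0046 over genes for replicates 1, 2 and 3), and not every library correlated best with its own number. With the replicate block Tek had a log2 fold change of -1.78 (adjusted p = 2.8e-08), 1605 genes were higher and 1509 lower, the oxygen-sensing list had 5 members higher, the mural list 1 lower, and no call of the 10 genes changed. The differences of log2 CPM between 2 genes kept their sign with a prior count of 0.5, with 1 library left out and with same-numbered libraries as pairs, a design whose smallest exact p is 0.25. Tie1, with 27 to 98 counts, is where depth limits most.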

Other observations

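Of 7 angiopoietin-like genes, relatives of the angiopoietins that do not bind Tek, 6 were tested, 2 were higher in p16+ and 0 were lower, against 8.69% higher and 8.04% lower over all genes tested, with a median log2 fold change of 0.21. Angptl7, known from the eye and from connective tissue matrix, had 41.3, 29.3 and 38.6 CPM in p16+ libraries, against 12.5, 12.3 and 12.2 CPM in p16- libraries, with no overlap (log2 fold change 1.56, SE 0.13, adjusted p = 6.49e-07). Angptl4, an inhibitor of lipoprotein lipase, rose to 271 ± 24.1 CPM in p16+, against 146 ± 6.67 CPM in p16- (SD, n = 3 each; adjusted p = 2.01e-06). Without p16- replicate 1, 1 member, Angptl2, was called lower (adjusted p = 0.0328).

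Of 12 secreted inhibitors of angiogenesis, 3 were higher in p16+, 3 were lower and 6 did not pass, against the same shares over all genes, with a median log2 fold change of 0.04. Col18a1, the collagen from which endostatin is cut, rose to 1222 ± 67.5 CPM in p16+, against 564 ± 82.9 CPM in p16- (adjusted p = 1.28e-06). The vasohibin gene Vash1 fell to 6.22 ± 1.88 CPM, against 15.7 ± 2.72 CPM in p16- (adjusted p = 0.000218), and the metalloproteinase inhibitor gene Timp3 to 293 ± 13.5, against 430.4 ± 43.9 CPM in p16- (adjusted p = 0.000273; 21.3% of its exonic length is overlapped on the opposite strand).

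Per length, the ratio of Flt1 to Kdr was 0.483, 1.25 and 0.784 in p16+ libraries, against 0.299, 0.399 and 0.255 in p16- libraries. The ratio of Kdr to Pecam1 was 1.16 ± 0.256 in p16+ and 2.63 ± 0.337 in p16-, and that of Flt1 to Pecam1 0.954 ± 0.446 in p16+ and 0.849 ± 0.277 in p16- (SD, n = 3 each). These ratios were chosen after their values were seen and were not tested.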
